A study of Sus scrofa with 11 samples.

Results

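Of the 11 day 10 wounds sequenced from a diabetic and a non-diabetic Yucatan minipig, 2 held very little RNA from keratinocyte genes, and these are compared here with the other 9. They are diabetic replicate 4 and non-diabetic replicate 1, called epidermis-poor wounds below, and the other 9, called epidermis-bearing wounds, are 6 of the diabetic and 3 of the non-diabetic minipig. The 2 wounds were chosen by the measured FPKM (fragments scaled to gene length and sequencing depth) of keratinocyte genes in these same libraries, so the differences of the pair from the other 9 are given as a description with no test. The names refer to RNA alone, and no stained section of either wound was used here.

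Diabetes was induced in 1 minipig by intravenous streptozotocin, a toxin of the insulin-producing beta cells, and insulin supplements were stopped before wounding. The other minipig received no induction, and both carried full-thickness punch wounds. RNA was taken from tissue punched out of each wound, and 1 polyA library was made per wound. All wounds of a condition came from 1 animal, so the spread below is that between wounds of the same minipig, and condition and animal cannot be told apart.

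The epidermis is a layered sheet of keratinocytes. Its basal cells divide and anchor to the basement membrane, and the cells above them stop dividing, build desmosomes and cornified envelopes, and make the lipids that seal the surface. After wounding, keratinocytes at the edge switch to migratory keratins and alarm proteins and crawl over the granulation tissue, which is made of fibroblasts, vessels, macrophages and new collagen. A punch of wound tissue therefore holds both compartments, and its RNA is their mixture. In such bulk RNA, fewer cells of a type and less RNA per cell cannot be told apart.

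The 4 genes that mark keratinocytes were low in both epidermis-poor wounds. KRT14, the basal type I keratin (chr12:21074965-21079393 in Sscrofa11.1), had 391 to 1580 FPKM with a median of 699 in the diabetic epidermis-bearing wounds and 8.37 FPKM in diabetic replicate 4. In the non-diabetic minipig it had 487, 583 and 314 FPKM in replicates 2 to 4 and 61.7 FPKM in replicate 1. Its partner KRT5, on chromosome 5, had 1112 to 2861 FPKM (median 1632) against 29.2 FPKM in the diabetic minipig, and 1440, 1553 and 817 against 211 FPKM in the non-diabetic minipig. Neither keratin was at 0 in the epidermis-poor wounds, and both kept a larger share in non-diabetic replicate 1 than in diabetic replicate 4. TP63, the transcription factor that sustains basal keratinocytes, had 6.91 to 18.6 FPKM (median 7.80) against 0.151 FPKM, and 10.1, 15.3 and 6.87 against 1.12 FPKM. DSG3, a desmosomal cadherin of the lower layers, had 13.98 to 56.8 FPKM (median 22.3) against 0.365 FPKM, and 22.8, 32.0 and 22.4 against 1.19 FPKM. In none of the 4 did an epidermis-poor wound overlap the other wounds of its minipig. The KRT14 gene has a near-identical copy in the annotation, so reads may have been split between the copies, and the same holds for KRT6A.

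**Figure D1:**
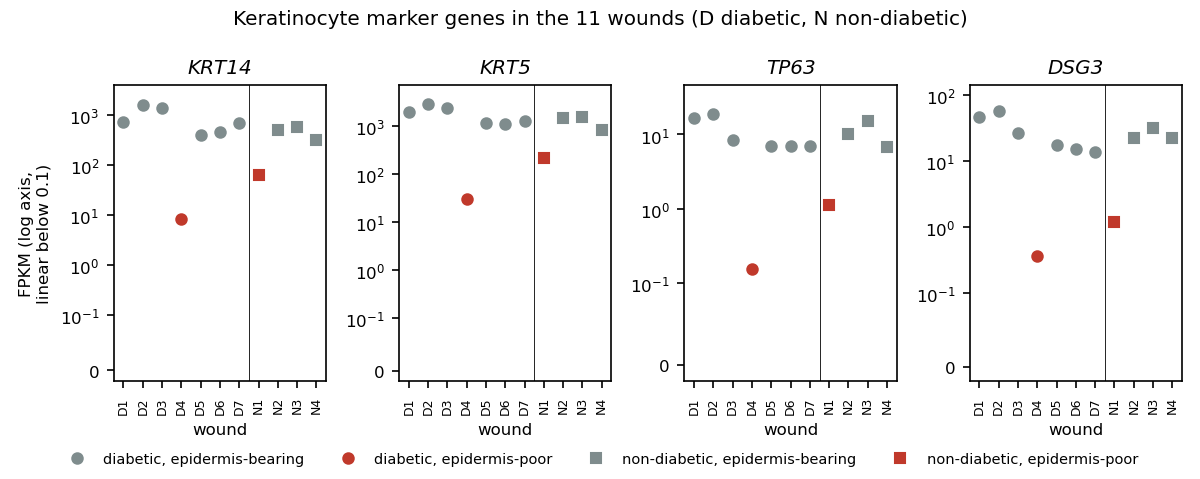
FPKM of the 4 keratinocyte marker genes in each wound, on a log axis that is linear below 0.1, with circles for diabetic and squares for non-diabetic wounds and the epidermis-poor wounds in red. In each panel diabetic replicate 4 is the lowest wound and non-diabetic replicate 1 the next lowest, with KRT14 at 8.37 and 61.7 FPKM.

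The mean log2(FPKM + 0.5) over the 14 genes of a basal keratinocyte list was 1.60 in diabetic replicate 4 and 2.54 in non-diabetic replicate 1, and the nearest epidermis-bearing wound, non-diabetic replicate 4, stood at 4.36. The other 8 lay between 4.90 and 5.91. Reads on genes numbered 34596338 and 33516206 in the epidermis-poor wounds and 28314785 to 40168372 in the others, and the epidermis-poor wounds lay inside that range. Keratin genes took 0.0160% and 0.0803% of the reads against 0.623% to 2.60%, and the 100 most abundant genes took 46.5% and 50.1% against 31.9% to 45.2%.

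The comparison was then read across the genome. A gene was counted lower when, within each minipig, the epidermis-poor wound lay below every other wound and the difference fitted with condition as a covariate was at least 1 on the log2(FPKM + 0.5) scale, and counted higher by the mirror rule. The 14670 genes examined reached 0.5 FPKM in 2 or more wounds. Of these, 750 were counted lower (5.11%) and 18 higher (0.123%). Leaving the size of the difference aside, both epidermis-poor wounds lay below the other wounds in 14.5% of genes and above them in 11.5%. The differences of the 750 lower genes had a median of -2.05, with 386 past 2, 119 past 4 and 32 past 6 on the log2 scale, and 727 of them code for proteins. The 18 higher genes had a median of 1.12 and none past 2. Over all genes tested the median difference was -0.00, and its 5th and 95th percentiles were -1.09 and 0.51. The number of higher genes depended on single wounds and on scaling, at 35 without non-diabetic replicate 2 and 32 without diabetic replicate 5. It was 49 after quantile normalization and 83 with voom on recovered reads. Without diabetic replicate 4 it was 112 and without non-diabetic replicate 1 it was 62. Those 2 counts used a looser rule, since only 1 minipig then held an epidermis-poor wound.

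**Figure D2:**
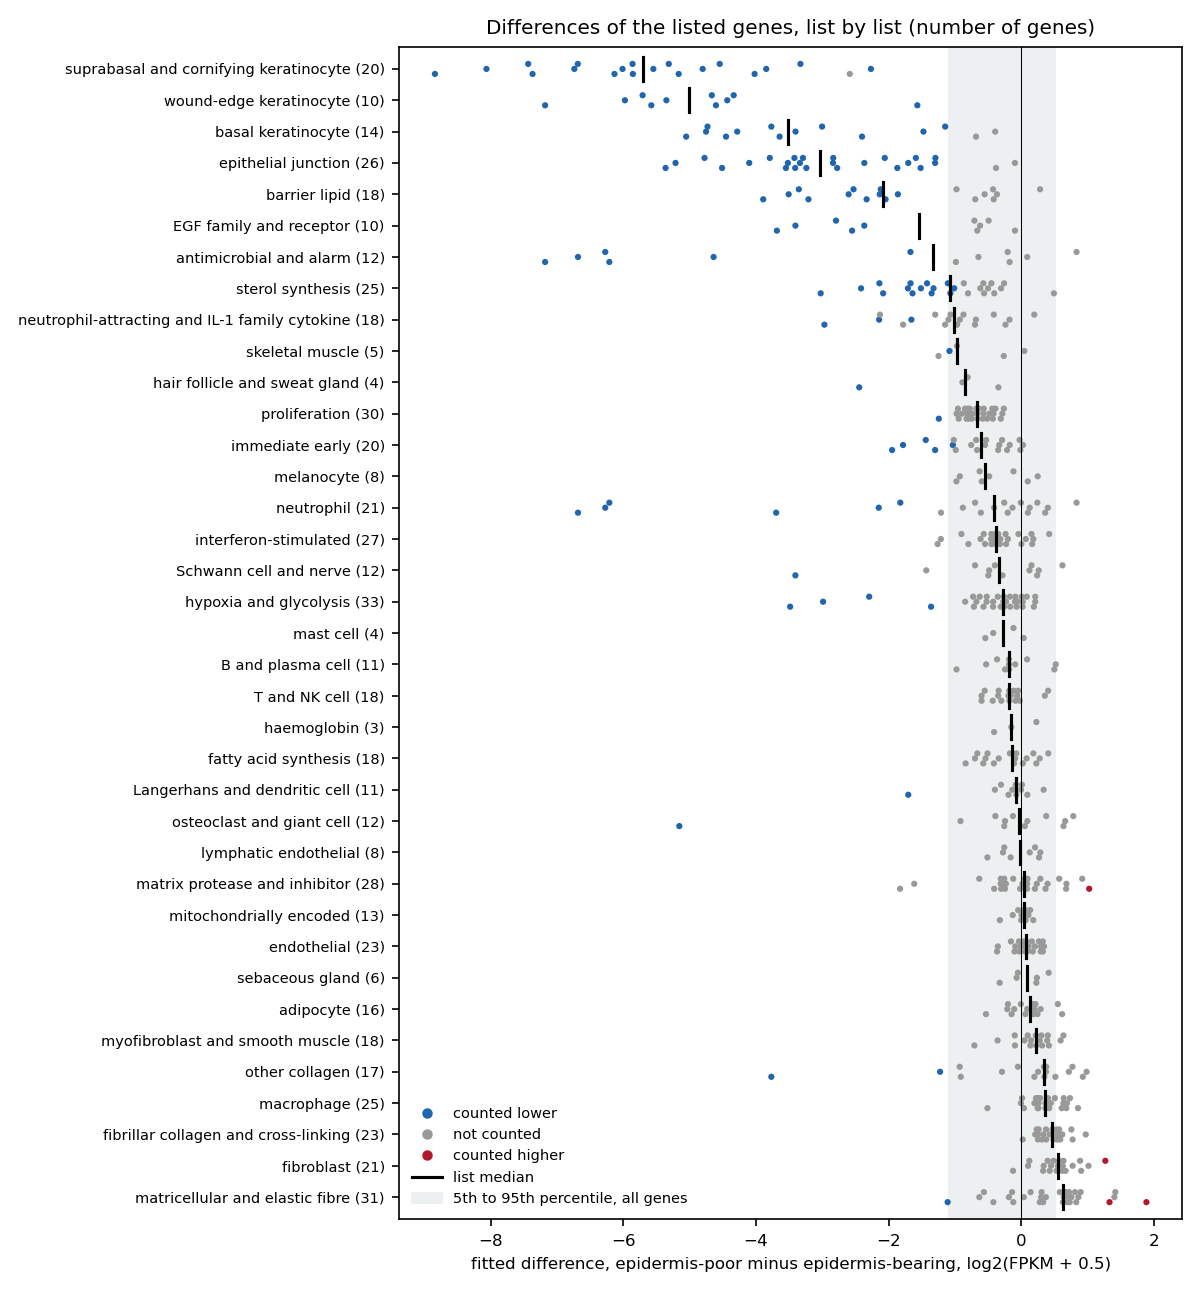
Fitted difference of each tested gene on the log2(FPKM + 0.5) scale, epidermis-poor minus epidermis-bearing wounds, with 1 line for each list of genes and its number of genes in brackets. Keratinocyte and junction lists lie far to the left, with list medians from -5.70 to -3.04, and the fibroblast, fibrillar collagen and matricellular lists lie to the right with medians from 0.47 to 0.63.

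Genes of the upper epidermal layers had the lowest median difference of the 37 lists examined. In the list of suprabasal and cornifying genes 19 of 20 were counted lower, with a median difference of -5.70. Involucrin (IVL), a cornified envelope precursor, had 62.9 to 202 FPKM (median 122) in the diabetic epidermis-bearing wounds and 0 reads in diabetic replicate 4. In the non-diabetic wounds it had 90.6, 94.7 and 40.3 FPKM in replicates 2 to 4 and 8 reads (0.169 FPKM) in replicate 1. Both epidermis-poor wounds were thus close to empty of IVL. Corneodesmosin (CDSN), which glues corneocytes together, gave 0 and 2 reads in the epidermis-poor wounds, and the kallikrein KLK7, a protease that releases corneocytes, gave 2 and 30 reads. Filaggrin (FLG) and loricrin (LOR), a keratin-bundling protein and an envelope protein of the granular layer, were at 0 reads in both. KRT1, the suprabasal type II keratin, set the 2 wounds apart, with 0.0655 FPKM in diabetic replicate 4 and 21.1 FPKM in non-diabetic replicate 1, against 134 to 2940 FPKM (median 272) and 307, 277 and 118 FPKM in the others. The member not counted was KRT2, with a difference of -2.59. It was at 0 FPKM in at least 1 epidermis-bearing wound, so it could not be counted lower.

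Wound-edge genes were low as well, with all 10 of their list counted lower and a median difference of -5.01. KRT17, a keratin switched on in activated keratinocytes, had 685 to 2137 FPKM (median 1608) against 15.0 FPKM in the diabetic minipig, and 415, 327 and 231 against 10.7 FPKM in the non-diabetic minipig. Its difference of -5.71 (standard error 0.44) lay next to that of KRT6A, another activation keratin, at -5.58 (standard error 0.71). Connexin 26 (GJB2), a gap junction protein of migrating keratinocytes, kept 0.187% of the epidermis-bearing mean in diabetic replicate 4 and 5.31% in non-diabetic replicate 1. S100A7, an antimicrobial alarm protein, was at 0 reads in both, against 8.0 to 273 FPKM and 107, 22.4 and 260 FPKM.

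The basal and junction lists were lower by less. Of the 14 basal genes 12 were counted lower, with a median difference of -3.52. The genes not counted were KRT15, a keratin of basal and hair follicle cells, and DST, a cytolinker. KRT15 had 6.83 FPKM in diabetic replicate 4 against 5.76 to 25.9 FPKM, and 1.81 FPKM in non-diabetic replicate 1 against 0.679, 9.97 and 0.943 FPKM, so it lay inside the range of both minipigs. Of 26 junction and epithelial identity genes 24 were counted lower, with a median of -3.04. Desmoplakin (DSP), the anchor between desmosomes and keratin filaments, had 52.2 to 252 FPKM (median 114) against 1.36 FPKM, and 129, 115 and 73.8 against 4.77 FPKM. E-cadherin (CDH1), the adherens junction protein of epithelia, had 20.4 to 57.0 FPKM (median 26.6) against 1.04 FPKM, and 33.1, 34.3 and 23.9 against 0.713 FPKM. For DSP diabetic replicate 4 was the lower of the pair, and for CDH1 non-diabetic replicate 1 was. CLDN7 and TJP3, a claudin and a tight junction scaffold, were the members not counted, with differences of -0.10 and -0.38.

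Gene families clustered on chromosomes were low in blocks, and these families were chosen after their values were seen. All 12 tested KLK genes were counted lower, over chr6:55570632-55726099, with differences from -8.55 for KLK6 to -1.10 for KLK4, which did not pass 1.05 FPKM in any wound. On chromosome 4, between 96007026 and 97272517, 33 of 43 tested genes (76.7%) were counted lower in the region of the epidermal differentiation complex. The SPRR-type genes there held the largest differences among genes reaching 5 FPKM, with LOC110255231 (described as SPRR2E) at -9.08 and SPRP at -8.84. The S100A genes of the same region split, with 8 of 15 counted lower. S100A2, expressed in basal keratinocytes, had 7.99 and 70.2 FPKM in diabetic replicate 4 and non-diabetic replicate 1 against 205 to 1388 FPKM over the 9 other wounds, whereas S100A11, a widely expressed member, had 547 and 569 FPKM against 499.7 to 704 FPKM. S100A4, a gene of motile stromal and immune cells, had 33.6 and 40.1 FPKM against 28.3 to 78.5 FPKM. S100A2 was thus below and S100A11 and S100A4 inside the range of the 9 other wounds. Of the 24 tested keratin genes 14 were counted lower, and KRT7, KRT8 and KRT19, keratins of simple epithelia and glands, were among the 10 that were not. KRT8 and KRT19 were at 0 FPKM in at least 1 epidermis-bearing wound. No wound can lie below 0, so these genes could not be counted lower.

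The 2 epidermis-poor wounds were not equally low. Over the 750 lower genes, diabetic replicate 4 kept a median of 6.80% of the epidermis-bearing mean of its minipig (quartiles 1.06% and 21.5%) and non-diabetic replicate 1 kept 10.7% (quartiles 3.01% and 24.9%). The share was higher in non-diabetic replicate 1 for 465 genes and in diabetic replicate 4 for 227. By list, basal genes kept a median of 3.26% and 13.0% in the 2 wounds, wound-edge genes 0.632% and 6.59%, and suprabasal genes 0.114% and 0.844%. How the epidermis-poor difference differed between the minipigs, which is a contrast of the 2 chosen wounds with each other, was fitted as an interaction term. No gene passed an adjusted p of 0.05 with limma (0%), 259 (1.77%) had an unadjusted p under 0.05, and limma with voom on recovered reads called 0 with 158 unadjusted. With 1 epidermis-poor wound in each minipig, each was assumed to vary like the other wounds, so the absence of calls does not show that the difference was alike in both, least of all for the keratinocyte genes on which the wounds were chosen.

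**Figure D3:**
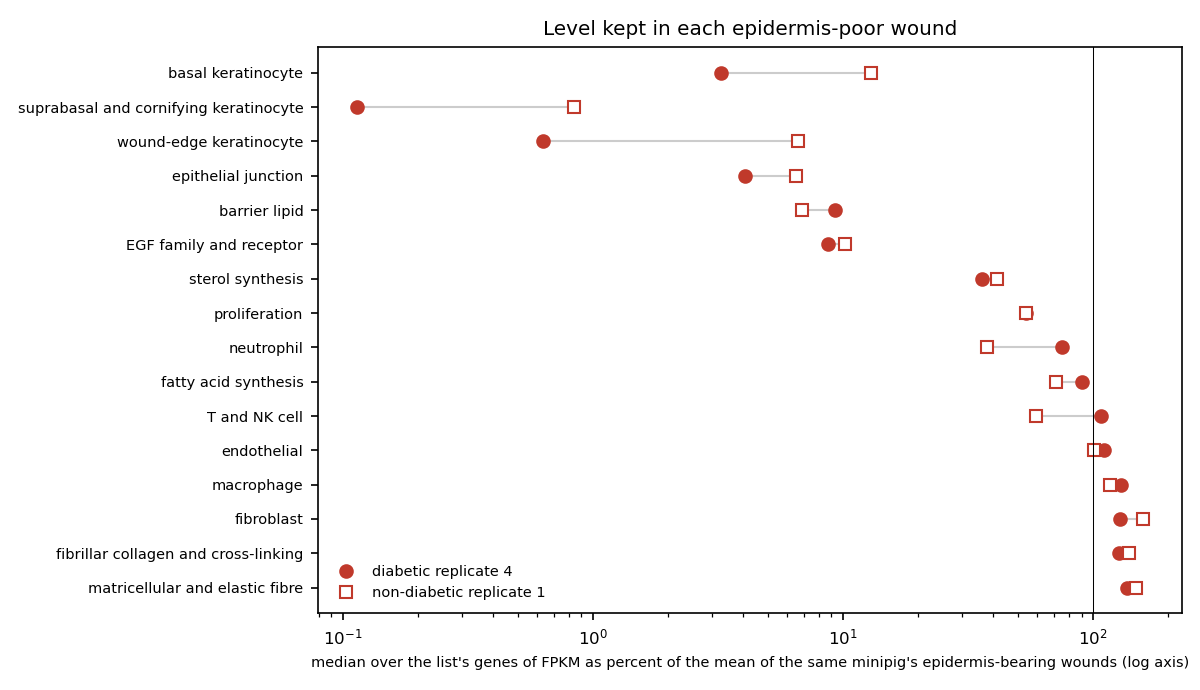
Median over the genes of each list of the FPKM in an epidermis-poor wound, as a percentage of the mean of the epidermis-bearing wounds of the same minipig, on a log axis. The suprabasal list kept 0.114% in diabetic replicate 4 and 0.844% in non-diabetic replicate 1, and the fibroblast list lay at 129% and 158%.

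Cholesterol synthesis genes were also lower in the epidermis-poor wounds, by smaller amounts than the epidermal genes. Cholesterol is built from acetyl-CoA by a chain of enzymes under the transcription factor SREBP-2, and keratinocytes make it for the barrier. In the list of 25 sterol genes 14 were counted lower, where 5.11% of all tested genes were, and the median difference was -1.07. Both epidermis-poor wounds lay below the others in 22, against 14.5% of all tested genes. The wounds kept a median of 36.1% and 41.4%. The genes described in detail act from the start to the end of the chain: ACAT2 makes acetoacetyl-CoA, FDPS makes farnesyl pyrophosphate, SQLE oxidises squalene and DHCR7 makes cholesterol itself. Sequences upstream of the annotated start of ACAT2, FDPS and DHCR7 show what these genes share besides the level. They are the 200 bases before the start in Sscrofa11.1 (RefSeq annotation), read on the strand of the gene, with CCAAT boxes (CCAAT, or ATTGG on the other strand) in capitals. The KRT14 sequence follows for contrast, with a match to the AP-1-like pattern TGANTCA in capitals. This pattern reads the same on both strands and N is any base. In KRT14 that base is A, and the match is not called an AP-1 site.
ACAT2: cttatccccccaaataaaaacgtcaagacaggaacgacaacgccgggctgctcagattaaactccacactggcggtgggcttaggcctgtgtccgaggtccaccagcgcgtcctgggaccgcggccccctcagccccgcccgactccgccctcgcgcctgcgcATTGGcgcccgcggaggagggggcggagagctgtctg
FDPS: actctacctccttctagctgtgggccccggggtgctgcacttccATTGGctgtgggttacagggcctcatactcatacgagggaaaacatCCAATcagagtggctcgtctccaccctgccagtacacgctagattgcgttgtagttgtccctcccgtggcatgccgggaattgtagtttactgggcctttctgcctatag
DHCR7: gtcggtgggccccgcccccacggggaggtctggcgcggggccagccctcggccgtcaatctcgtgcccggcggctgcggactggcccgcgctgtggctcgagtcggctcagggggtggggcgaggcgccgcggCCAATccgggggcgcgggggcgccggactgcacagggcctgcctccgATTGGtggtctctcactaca
KRT14: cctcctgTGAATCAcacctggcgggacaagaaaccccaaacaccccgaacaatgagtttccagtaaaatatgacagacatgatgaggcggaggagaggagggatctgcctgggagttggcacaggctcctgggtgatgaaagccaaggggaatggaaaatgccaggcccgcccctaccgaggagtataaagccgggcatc

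The windows are chr1:7612862-7613061, minus strand for ACAT2, chr4:94514821-94515020, minus strand for FDPS, chr2:2377152-2377351, plus strand for DHCR7 and chr12:21074765-21074964, plus strand for KRT14. The 3 sterol genes hold a CCAAT box there, and KRT14 holds none. In a window from 250 bases before to 50 bases after the start, searched on both strands, a CCAAT box was found in 22 of the 25 sterol genes (88%). It was found in 33.3% of the 750 lower genes and in 35.3% of the 14666 promoters of all tested genes. The core of the sterol regulatory element (CACNCCAC) was found in 6 of 25 (24%) and in 5.37% of all. None of the 3 sterol gene sequences shown holds this core. For the 18 fatty acid synthesis genes the shares were 44.4% and 5.56%. A match to the AP-1-like pattern, with any base at its centre, was found in 4 of the 14 basal genes (28.6%). It was found in 11.2% of the 750 lower genes and in 5.30% of all. A match to these letters describes the window and is not evidence of a bound factor.

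DHCR7 had 14.9 to 25.5 FPKM (median 20.1) in the diabetic epidermis-bearing wounds and 0.925 FPKM in diabetic replicate 4, and in the non-diabetic minipig 21.0, 11.5 and 10.8 FPKM against 2.90 FPKM. SQLE had 9.67 to 17.6 FPKM (median 11.4) against 1.97 FPKM, and 12.6, 16.4 and 12.03 against 3.39 FPKM. The epidermis-poor wounds were below the others in both, and DHCR7 had the largest difference of the list at -3.02 (standard error 0.36), followed by ACAT2 at -2.42 (standard error 0.34). FDPS, the most abundant member, differed by -1.07 (standard error 0.18), with 16.6 against 37.8 to 56.7 FPKM and 22.7 against 35.8, 37.5 and 33.9 FPKM. SREBF2, which encodes SREBP-2, was also lower, with a difference of -1.35. INSIG1, the retention partner of the SREBP pathway, and MVK, a mevalonate kinase, lay inside the range of at least 1 minipig, with differences of -0.45 and -0.26.

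In the fatty acid synthesis list none of the 18 genes was counted lower or higher, and the median difference was -0.14. Of all tested genes 5.11% were counted lower and 0.123% higher, so this count is near the share of all genes. Both wounds lay below the others in 3 genes, among them AGPAT2, an acyltransferase of phospholipid and triglyceride synthesis, at -0.84. SCD, a desaturase, ME1, malic enzyme, and ACLY, which makes acetyl-CoA from citrate, differed by -0.70, -0.66 and -0.57 and lay inside the range of at least 1 minipig. Fatty acid synthase (FASN) had 42.0 FPKM in diabetic replicate 4 against 28.9 to 68.9 FPKM, and 63.2 FPKM in non-diabetic replicate 1 against 74.6, 245 and 24.3 FPKM, inside the range in both minipigs. Genes that make and carry the lipids of the skin barrier had 11 of 18 counted lower and a median of -2.08. ALOX12B, the lipoxygenase that oxidises barrier ceramides, differed by -3.89 (standard error 0.52), and CERS3, the synthase of ultra-long ceramides, gave 2 and 14 reads in the epidermis-poor wounds against 3.56 to 7.92 FPKM in the diabetic and 3.68 to 4.76 FPKM in the non-diabetic epidermis-bearing wounds. ELOVL1, a fatty acid elongase used by many cell types, differed by -0.42.

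**Figure D4:**
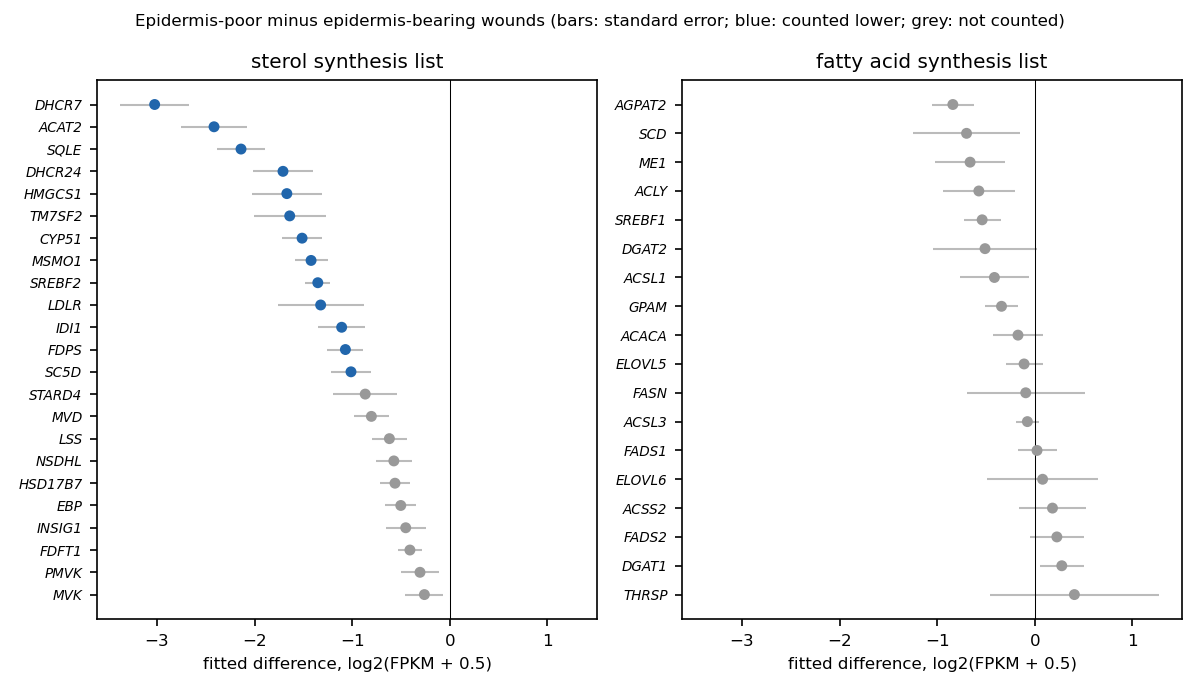
Fitted difference on the log2(FPKM + 0.5) scale with its standard error for 23 genes of the sterol synthesis list (left) and the 18 of the fatty acid synthesis list (right), with genes counted lower in blue. DHCR7 stands at -3.02. Of the 23 sterol genes drawn 13 are blue and of the 18 fatty acid genes none is, where 5.11% of all tested genes were counted lower.

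In the neutrophil list 6 of 21 genes were counted lower, where 5.11% of all tested genes were, and the median difference was -0.41. Both wounds lay below the others in 8, against 14.5% of all tested genes. The list kept a median of 74.9% in diabetic replicate 4 and 37.7% in non-diabetic replicate 1. S100A8 and S100A9 encode calprotectin and S100A12 a related alarm protein, all of which neutrophils store in quantity and activated keratinocytes also express. S100A9 had 1288 to 3116 FPKM (median 2125) in the diabetic epidermis-bearing wounds and 8.96 FPKM in diabetic replicate 4, and 3887, 2478 and 3047 FPKM against 72.9 FPKM in the non-diabetic minipig. S100A8 kept 0.539% and 3.38% of the epidermis-bearing mean and S100A12 0.561% and 2.98%. Whether less of this RNA came from neutrophils or from keratinocytes was not tested. CXCR2, the receptor for neutrophil-attracting chemokines, had 1.29 to 2.75 FPKM against 0.215 FPKM, and 1.56, 1.08 and 2.16 against 0.0434 FPKM. IL1R2, a decoy receptor for interleukin 1, and ARG1, arginase 1, were the other members counted lower, with differences of -2.15 and -3.70.

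The other 15 neutrophil genes were not counted, with differences from -1.21 to 0.83. MMP9, a gelatinase stored in neutrophil granules, had 20.8 FPKM in diabetic replicate 4 against 11.2 to 41.6 FPKM, and 27.4 FPKM in non-diabetic replicate 1 against 50.5, 23.3 and 40.6 FPKM. VNN2, a surface pantetheinase of leukocytes, had 4.56 against 3.04 to 4.96 FPKM and 5.45 against 4.01, 5.10 and 7.67 FPKM. Both genes lay inside the range of both minipigs. CSF3R, the receptor of the granulocyte growth factor, lay just below the range in both, at 3.70 against 3.81 to 11.06 FPKM and 2.75 against 3.45 to 9.01 FPKM, with a difference of -0.70. Summed over the list, the FPKM was 125 and 368 in the epidermis-poor wounds against 3879 to 10889 and 8757 to 12695 in the others. In the epidermis-bearing wounds most of this sum came from S100A8, S100A9 and S100A12. In diabetic replicate 6, for example, they had 997, 1288 and 1508 FPKM. The sum therefore says little about the other genes of the list. Lysozyme (LYZ), an antimicrobial enzyme of phagocytes and glands, was also low, at 38.9 against 840 to 2262 FPKM and 57.9 against 1310, 715 and 1432 FPKM.

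**Figure D5:**
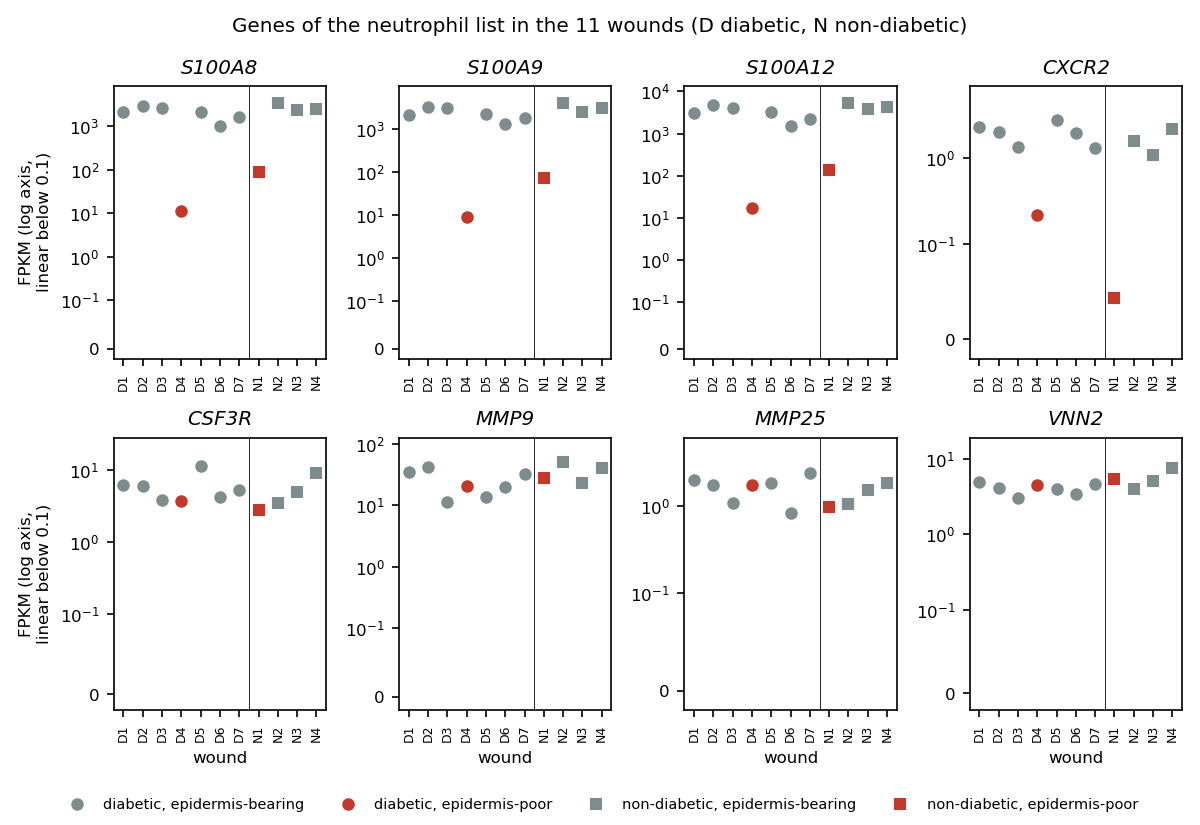
FPKM of 8 genes of the neutrophil list in each wound, on a log axis that is linear below 0.1, with the epidermis-poor wounds in red. S100A8, S100A9, S100A12 and CXCR2 are far below the other wounds in both minipigs, CSF3R is just below them, MMP9 and VNN2 lie within them, and MMP25 lies within them in the diabetic and just below them in the non-diabetic minipig.

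Lists of stromal and macrophage genes had positive median differences, and few of their genes were counted higher, where 0.123% of all tested genes were. All 23 tested genes of the fibrillar collagen and cross-linking list had a positive difference, from 0.02 to 0.97, with a median of 0.47, but none was counted higher. COL1A1, the main chain of type I collagen, had 4615 to 19026 FPKM (median 14051) against 17294 FPKM in the diabetic minipig, inside the range, and 13914, 9548 and 9738 against 20109 FPKM in the non-diabetic minipig, above it. COL11A1, a minor fibrillar chain, was above the range in both, with 110 against 40.1 to 99.1 FPKM and 194 against 94.4, 83.8 and 102 FPKM. The fibroblast list had a median of 0.55 with 1 of 21 genes counted higher, and the matricellular list 0.63 with 2 of 31. The macrophage list had a median of 0.36, with differences from -0.51 to 0.85 and 0 of 25 counted, and 17 of its genes lay inside the range of at least 1 minipig. Both epidermis-poor wounds lay above the others in 8 macrophage, 8 fibroblast, 7 fibrillar collagen and 8 matricellular genes, against 11.5% of all tested genes. They lay below the others in 1 matricellular gene and in 0 genes of the other lists named here, against 14.5% of all. CSF1R, the growth factor receptor of macrophages, had 88.9 against 37.5 to 76.1 FPKM and 67.4 against 51.0, 33.0 and 46.9 FPKM, a difference of 0.68 that did not reach the size needed to be counted. COL17A1 and COL7A1, the collagens of the epidermal anchoring complex, went the other way, with differences of -3.77 and -1.22.

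The 10 counted higher genes with the largest differences, among those reaching 5 FPKM, included matrix and growth factor genes. CTGF, a matricellular protein, had 42.2 to 576 FPKM (median 221) against 854 FPKM, and 119, 93.8 and 158 against 364 FPKM, a difference of 1.88 (standard error 0.70) and the largest of the 10 named by size. SFRP2, a secreted modulator of Wnt signals made by fibroblasts, had 399.8 to 1627 FPKM (median 1142) against 2211 FPKM, and 553, 256 and 599.8 against 1078 FPKM. MMP2, a gelatinase, had 881 to 3322 FPKM (median 2380) against 3958 FPKM, and 2609, 1594 and 1962 against 4090 FPKM. In these 3 genes both epidermis-poor wounds were the highest of their minipig. WDR86, PRELP (a matrix proteoglycan), RSPO1 (a secreted enhancer of Wnt signals), CITED2 (a transcriptional co-regulator), IGF2 (a growth factor) and TSPAN11 (a tetraspanin) differed by 1.38, 1.33, 1.32, 1.16, 1.16 and 1.02. The tenth, MIR214, differed by 1.01, and the mature miRNA is not measured by a polyA library. FPKM values are relative to the rest of the library, and whether the smaller share of epidermal RNA bears on these higher values was not tested. Endothelial genes had a median of 0.07 and the 13 mitochondrially encoded genes one of 0.04.

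In the proliferation list 1 of 30 genes, cyclin B1 (CCNB1), was counted lower at -1.24, where 5.11% of all tested genes were. All 30 differences were negative, from -1.24 to -0.26, and both wounds lay below the others in 18, against 14.5% of all tested genes. In the hypoxia and glycolysis list 4 of 33 were counted lower, again beside 5.11% of all tested genes, and the median was -0.27. EGLN3, an oxygen-sensing hydroxylase, had 5.82 to 16.6 FPKM against 0.744 FPKM and 29.7, 19.6 and 28.1 against 1.02 FPKM, and the glucose transporter SLC2A1 had 71.0 to 120 FPKM against 6.68 FPKM and 103, 120 and 57.7 against 20.3 FPKM. Enolase (ENO1), a glycolytic enzyme of most cells, lay below the range in both minipigs too, with a difference of -0.52. KLF4, a transcription factor of differentiating keratinocytes, differed by -1.95. Of the EGF family and its receptors 5 of 10 were counted lower, namely AREG at -3.68, ERBB3 at -3.41, EREG at -2.79, TGFA at -2.55 and HBEGF.

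The 9 epidermis-bearing wounds allowed a test that the choice of the 2 wounds did not fix. Within them, the basal keratinocyte level ran from 4.36 to 5.91, and each gene outside the basal list was fitted on that level with condition as a covariate. Of 14656 genes 1 passed an adjusted p of 0.05 (0.00682%), and 2901 (19.8%) had an unadjusted p under 0.05, 1334 of them with a positive and 1567 with a negative slope. The gene that passed was SERPINB5, the epithelial serpin maspin. It had 34.2 to 87.6 FPKM in the diabetic and 34.3, 50.2 and 23.6 FPKM in the non-diabetic epidermis-bearing wounds, and rose by 1.20 (standard error 0.12) on the log2 scale per unit of basal level (adjusted p = 0.0247, limma, range over the alternatives 0.00311 to 0.241). Its value was 0.432 FPKM in diabetic replicate 4 and 2.85 FPKM in non-diabetic replicate 1. The call was lost when any 1 of diabetic replicates 1, 2, 3, 5, 6 and 7 or non-diabetic replicates 2 and 3 was left out. Without non-diabetic replicate 4 the count was 3165 genes, and with the 6 diabetic wounds alone 2035.

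The slopes and the epidermis-poor differences share the 9 epidermis-bearing wounds and are set side by side by list. Over all 14656 genes, for comparison, 1334 had a positive and 1567 a negative slope at an unadjusted p under 0.05 (limma). The wound-edge list had a median slope of 0.91 and a median difference of -5.01, and the junction list 0.58 and -3.04. In the junction list no gene passed the adjusted test, and 13 of 26 had an unadjusted p under 0.05, all with positive slopes. The sterol list had 0.37 and -1.07, again with 0 genes passing and 13 of 25 positive at an unadjusted p under 0.05. The suprabasal list had a median slope of -0.42 against its difference of -5.70, with 0 of 20 genes at an unadjusted p under 0.05, so the upper layers did not follow the basal level among these wounds in a way that could be detected. In the fibroblast list the median slope was -0.77 and 15 of 21 genes had a negative slope at an unadjusted p under 0.05, in the fibrillar collagen list -0.71 and 17 of 23, and in the macrophage list -0.63 and 13 of 25, with 0 genes of the 3 lists passing the adjusted test. SFRP2, for example, had a slope of -1.62 (adjusted p = 0.138, limma, which did not pass). Among the diabetic wounds the basal level also went with the letter, L or R, that opens the library names. Those named L had 5.78, 5.91 and 5.25 and those named R 5.06, 5.13 and 4.95. The L-named non-diabetic wound had 4.90 and the R-named ones 5.34 and 4.36. With this letter as a covariate 1410 genes had an unadjusted p under 0.05 and 0 passed. The list counts above are without that covariate.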

How the data were processed

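RNA was sequenced from 11 wounds, 1 library each. Per the labels and the study's methods, the authors trimmed reads with fastp, aligned them to Sscrofa11.1 with HISAT2 2.2.1 and counted them with featureCounts 2.0.6. StringTie 2.2.3 is also named in the submitters' processing notes. The authors deposited FPKM values for 30376 genes, and their FPKM formula is not given in the sources used here. Whole read numbers could be recovered from the FPKM and gene lengths for 100.0% of values (tolerance 0.05 reads), and these are the reads quoted. One read on a 2 kb gene was worth 0.0112 to 0.0194 FPKM. Replicates were wounds of 1 animal, so p-values measure the spread between these wounds.

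Genes reaching 0.5 FPKM in 2 or more libraries were fitted on log2(FPKM + 0.5), a scale that understates changes of low genes, with limma 3.58.1 in R 4.3.3. Differences used all 11 wounds with condition as covariate and no test. The slope (9 wounds) and interaction (11 wounds) were tested two-sided with eBayes and a trend, and adjusted over all genes by Benjamini-Hochberg. The scripts were tested on simulated data. The members and the 37 lists (659 of 701 names matched, 20 by alias) were chosen with earlier results of these data known. Named genes were the 4 markers, in each list up to 4 counted members with the largest difference and the most abundant member, the 10 largest falls and rises among counted genes reaching 5 FPKM, and genes called in a test. ACLY, AGPAT2, CLDN7, COL1A1, COL11A1, CSF1R, CSF3R, CXCR2, DST, ELOVL1, FLG, HBEGF, IL1R2, INSIG1, KRT2, KRT7, KRT8, KRT15, LOR, LYZ, ME1, MMP9, MMP25, MVK, SCD, SREBF2, TJP3, VNN2 and members of the gene families were named after their values were seen. Promoters were read from the Sscrofa11.1 genome with the RefSeq annotation. Python 3.11.15, numpy 2.4.6, pandas 2.3.3 and matplotlib 3.10.9 were used. Alternatives changed the pseudocount, filter, scaling, threshold, covariates and wounds included. The replicate numbers of the labels were not used to pair wounds in the main fits. Deviations of same-numbered wounds from their group means correlated at -0.26, 0.20, 0.05 and -0.47 for replicates 1 to 4. An epidermis-poor wound is in the pairs of replicates 1 and 4, so these values cannot settle whether the numbers pair wounds. Some genes and sequences are not reported here.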

Additional observations from a re-analysis of the deposited data

Results flagged for a closer look

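Wounds that stood apart from the others of their minipig are given with the gap to the nearest wound as a share of the whole range. Diabetic replicate 4 stood apart as the lowest of the diabetic wounds in the mean level of the basal (0.778), suprabasal (0.667), wound-edge (0.687), epithelial junction (0.765), sterol synthesis (0.662), barrier lipid (0.614), neutrophil (0.643) and antimicrobial (0.699) lists. Non-diabetic replicate 1 stood apart as the lowest of the non-diabetic wounds in the wound-edge (0.898) and antimicrobial (0.945) lists. The 2 wounds were chosen on keratinocyte RNA in these libraries, so these values are a description and are set against no chance rate.

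In other measures, 7 values lay past Dixon's critical value, which chance alone passes in about 1 in 20 groups. The groups tested numbered 84, counting those of the lists in the preceding paragraph. Non-diabetic replicate 3 was highest in the sebaceous gland list (0.849), diabetic replicate 6 highest in the melanocyte list (0.839), and diabetic replicate 3 highest in the skeletal muscle list (0.888). Diabetic replicate 1 was lowest in the B and plasma cell list (0.653) and highest in the lymphatic endothelial list (0.614). Non-diabetic replicate 4 had the most reads on genes (0.858), and non-diabetic replicate 1 the fewest genes above 0 (0.848).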

How the results depend on the processing

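The count of lower genes, 750, stayed between 614 and 1007 under the changes of pseudocount, filter, scaling and covariates, between 729 and 859 when a wound was left out, and was 386 for a difference of at least 2 and 2132 with no minimum. The count of higher genes, 18, was 58 with a pseudocount of 0.1, 10 with a pseudocount of 1, 49 with quantile normalization, 83 with voom, 0 for a difference of at least 2, 1690 with no minimum, and 14 to 112 when a wound was left out. Leaving out an epidermis-poor wound also loosened the rule, which then asked for 1 minipig only. Those counts were 859 lower and 112 higher without diabetic replicate 4, and 803 and 62 without non-diabetic replicate 1. The slope count, 1, was 0 without the filter or with the side letter (L or R) of the library names as a covariate, 40 with libraries rescaled to the same sum, 5 with voom, 5 with the level taken from the 4 markers, 2035 in the diabetic wounds alone, and 0 to 3165 when a wound was left out. The interaction count, 0, was 112 without the filter and 0 to 2 when a wound was left out, with 2 without non-diabetic replicate 3. The causes were not tested. With the replicate number as a block, the counts were 778 lower, 15 higher, 1 slope and 0 interaction.

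Quantile normalization moved the median difference of all genes from -0.00 to 0.12. Of the list medians, 745 kept within the spread between wounds and 32 moved, and of the gene differences 3055 kept and 131 moved. Of the alternative slopes of SERPINB5, 9 kept the call and 11 lost it. Depth limits genes near 1 read, and with 1 epidermis-poor wound per minipig their own spread is unknown.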

Other observations

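Some lists that the comparison does not turn on carry values of their own. In the list of neutrophil-attracting and interleukin 1 family cytokines 3 of 18 genes were counted lower, where 5.11% of all tested genes were. They were CCL20, IL20 and IL1A, with differences of -2.97, -2.14 and -1.66. These cytokines were also far apart among the epidermis-bearing wounds. CCL20, a chemokine for dendritic and T cells, had 30.7 and 20.8 FPKM in diabetic replicates 1 and 5 and 0.278 to 1.79 FPKM in diabetic replicates 2, 3, 6 and 7. Skeletal muscle actin (ACTA1) reached 957 FPKM in diabetic replicate 3.

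Of 12 genes expressed by osteoclasts and giant cells 1 was counted lower, near the 5.11% of all tested genes. It was carbonic anhydrase 2 (CA2), at 0.423 FPKM against 58.5 to 116 FPKM in the diabetic and 3.16 against 68.2, 40.7 and 35.9 FPKM in the non-diabetic minipig. SOX9, a transcription factor of hair follicle and gland cells, had 0.537 against 2.47 to 8.82 FPKM and 0.711 against 8.68, 6.96 and 5.59 FPKM. No gene of the sebaceous gland, endothelial, T and NK cell, B and plasma cell, adipocyte or interferon-stimulated lists was counted in either direction. Of all tested genes 5.11% were counted lower and 0.123% higher, so an empty count in any of these lists is near that share. Several list medians near 0 changed sign. That of the T and NK cell list, -0.18, was 0.01 under quantile normalization and 0.10 without non-diabetic replicate 1, and that of the adipocyte list, 0.13, was -0.26 with the replicate block, -0.25 without diabetic replicate 4 and -0.02 without diabetic replicate 1. The endothelial median, 0.07, was -0.00 with libraries rescaled to the same sum, the sebaceous gland median, 0.09, was -0.03 without diabetic replicate 4, and the fatty acid synthesis median, -0.14, was 0.00 without the condition covariate.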
